A study of Mus musculus with 8 samples.

Results

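Sarcomeric myosin heavy chains are the motor proteins of the thick filament, and a muscle fibre is typed by the heavy chain gene it uses. The 6 genes described here are Myh4, Myh1, Myh2, Myh7, Myh8 and Myh3, picked by symbol from the 25655 genes of the count table. They were measured in mouse gastrocnemius, a calf muscle, at day 4. The sepsis group was 3 samples of wild-type males given cecal slurry, gut content in suspension, which causes infection by many microbes. The control group was 5 samples of wild-type males given 10% glycerol. The series title names nicotinamide mononucleotide, but the count table held no columns beyond these 8 samples. The animals' age is not stated in the labels.

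Adult mouse limb muscle uses Myh4, Myh1, Myh2 and Myh7. Myh4 encodes the heavy chain of type IIB fibres, which contract fastest and fatigue soonest. Myh1 encodes that of type IIX fibres, Myh2 that of type IIA fibres, which are fast and oxidative, and Myh7 that of slow type I fibres and of the ventricle of the heart. Myh3 (embryonic) and Myh8 (perinatal) are used by fibres that are forming, in development and again in regeneration. All of them except Myh7 lie side by side in one cluster, while Myh7 lies next to the cardiac gene Myh6 on another chromosome.

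The stretch just upstream of the start of 4 of the genes held a block of shared letters. The sequences are shown because 3 of the 4 genes fell in sepsis and all 4 share the block. They are the 250 bases before the start of each gene in RefSeq's annotation of GRCm38.p6, on the plus strand, at chr11:67237562-67237811 for Myh4, chr11:67199852-67200101 for Myh1, chr11:67170777-67171026 for Myh2 and chr11:67276874-67277123 for Myh8. Capitals mark the 14-base run TTCTAATTATATCC that all 4 share and the TATA box letters TATAAAA where present.
Myh4: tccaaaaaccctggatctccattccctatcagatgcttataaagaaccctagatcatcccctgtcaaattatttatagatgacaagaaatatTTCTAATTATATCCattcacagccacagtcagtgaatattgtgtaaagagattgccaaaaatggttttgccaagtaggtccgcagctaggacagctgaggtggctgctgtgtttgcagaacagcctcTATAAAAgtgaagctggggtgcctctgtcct
Myh1: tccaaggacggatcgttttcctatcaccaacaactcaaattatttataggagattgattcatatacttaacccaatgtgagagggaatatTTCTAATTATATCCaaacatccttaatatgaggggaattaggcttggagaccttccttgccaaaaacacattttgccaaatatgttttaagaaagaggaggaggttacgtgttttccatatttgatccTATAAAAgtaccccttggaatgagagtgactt
Myh2: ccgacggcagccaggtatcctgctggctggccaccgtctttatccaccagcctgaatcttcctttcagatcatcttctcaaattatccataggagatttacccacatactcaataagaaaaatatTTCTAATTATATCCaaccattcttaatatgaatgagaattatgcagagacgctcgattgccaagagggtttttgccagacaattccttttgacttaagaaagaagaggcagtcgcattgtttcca
Myh8: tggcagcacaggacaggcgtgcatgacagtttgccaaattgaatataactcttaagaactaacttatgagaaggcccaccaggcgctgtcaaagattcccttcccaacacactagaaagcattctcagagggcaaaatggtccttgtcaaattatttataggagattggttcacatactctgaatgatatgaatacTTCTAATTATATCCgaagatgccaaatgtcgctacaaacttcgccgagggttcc
Of 32851 mouse promoter windows searched on both strands, 4 held this run, which is 0.0122% of them, and they were the windows of these 4 genes. The run was picked because these windows share it, so its presence in all 4 was given in advance. Whether it has a part in the fall was not tested, and Myh8 was not called. A longer run of 20 bases was shared by Myh4, Myh1 and Myh2. The run ended 144 bases before the start in Myh4, 146 in Myh1, 111 in Myh2 and 40 in Myh8, and it was not found in the windows of Myh3 or Myh7. TATAAAA lay 24 bases before the start in Myh4, 25 in Myh1 and 22 in Myh3, and 4.98% of all windows held it. In Myh2 the same letters began 11 bases after the annotated start. The letters CANNTG, the E-box core that myogenic regulators bind, occurred 2 times in the window of Myh4. They occurred 1 time each in those of Myh7, Myh8 and Myh3, and not in those of Myh1 or Myh2. Of all windows, 66.2% held them. A match in these letters is a description and does not show a site.

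The libraries were 3′ libraries, in which a transcript is read near its tail only, so levels in CPM (read counts scaled to a common library size) can be compared between genes without dividing by length. Totals ran from 3337851 to 3765726 counts in septic libraries and from 3086277 to 4016329 in control libraries. The defining transcripts of skeletal muscle were abundant in every library: 6 markers, led by Acta1 and Tnnt3, summed to between 30846 and 43506 CPM in sepsis and between 77202 and 91144 in controls. Leukocyte markers, 5 of 5 with reads, summed to between 228 and 412 CPM in sepsis and between 24.9 and 77.4 in controls, and their part in the results was not tested. In such bulk samples fewer cells of a type and less RNA per cell cannot be told apart. Control 1 stood apart from the other controls: its counts differed from theirs with a chi-square per degree of freedom of 4.95 to 6.86, against 2.04 to 3.33 among the other 4, while pairs of septic libraries ranged from 11.01 to 26.3. Of the 5 markers of heart muscle, 4 had reads, and Myl7 had no read in any library. They summed to between 13.2 and 23.9 CPM in sepsis and between 12.1 and 31.4 in controls. Among them Myh6 had 31 to 80 reads per library, and Tnnt2 had 65 reads in control 1 against 4 to 12 in the other controls.

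In sepsis the 3 fast adult genes fell and the slow gene did not pass the test. Myh2 fell to 571 ± 317 CPM in sepsis against 1631 ± 103 in controls (SD, n = 3 and n = 5). Myh1 and Myh4 also fell. Of the 5 members that passed the filter on low counts, 3 were lower and 0 were higher at an adjusted p below 0.05 (edgeR's quasi-likelihood test, Benjamini-Hochberg over all genes tested), while 25.2% of the 9810 genes tested were lower and 25.2% were higher. The groups' CPM did not overlap in those 3 members, as was true of 47.5% of all genes tested. DESeq2 gave the same counts of 3 and 0, and 0 members were higher at an unadjusted edgeR p below 0.05.

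**Figure D1:**
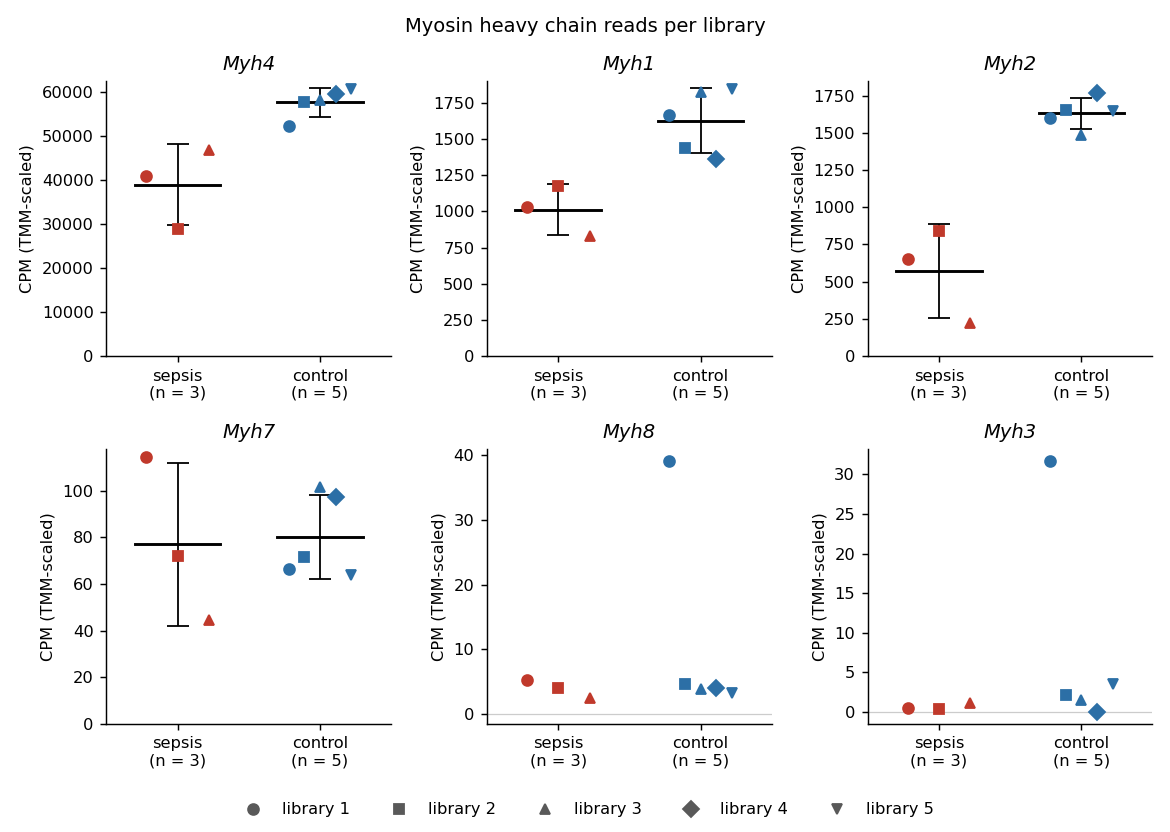
Level of each myosin heavy chain gene in every library, in CPM with TMM-scaled library sizes on linear axes, sepsis left and control right; symbols mark the library number, and bars show mean ± SD where drawn. The septic values of Myh4, Myh1 and Myh2 all lie below the control values, those of Myh7 lie among them, and control 1 lies far above all other libraries for Myh8 and Myh3.

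Myh4, the IIB gene (ENSMUSG00000057003), was by far the most abundant member. It had 40918, 28908 and 46871 CPM in sepsis 1, 2 and 3, against 52110, 57655, 58217, 59405 and 60502 CPM in controls 1 to 5. Sepsis 2 was the lowest and sepsis 3 came nearest to the controls, but no septic value reached the lowest control. The mean was 38899 ± 9150 CPM in sepsis and 57578 ± 3248 in controls, 1.48-fold lower in sepsis (log2 fold change -0.57, SE 0.14, edgeR adjusted p = 0.00389). Among all genes tested, 26.1% had a log2 fold change below that of Myh4.

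Myh1, the IIX gene (ENSMUSG00000056328), had 1030.1, 1177 and 830.1 CPM in sepsis 1, 2 and 3. In controls 1 to 5 it had 1664, 1438, 1829, 1361 and 1850 CPM. Here sepsis 2, the lowest library for Myh4, was the highest septic library, and sepsis 3 the lowest. The mean of 1012 ± 174 CPM in sepsis was 1.61-fold below the 1628 ± 223 CPM of controls (log2 fold change -0.69, SE 0.14, edgeR adjusted p = 0.00128).

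Myh2, the IIA gene (ENSMUSG00000033196), had 648, 842 and 223 CPM in sepsis 1, 2 and 3, against 1600.3, 1653, 1486, 1771 and 1646 CPM in controls 1 to 5. The controls lay close together, while the septic libraries were spread widely below them, with sepsis 3 lowest. The log2 fold change was -1.51 (SE 0.38, edgeR adjusted p = 0.0105), which is 2.86-fold lower in sepsis. Of all genes tested, 7.19% had a lower log2 fold change.

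Myh7, the slow gene (ENSMUSG00000053093), had 114, 71.8 and 44.7 CPM in sepsis 1, 2 and 3, against 66.3, 71.6, 102, 97.3 and 63.7 CPM in controls 1 to 5. The septic libraries held both the highest and the lowest value, so the groups overlapped. The log2 fold change was -0.06 (SE 0.28) and the edgeR adjusted p was 0.875, and its sign was positive when sepsis 3, control 3 or control 4 was left out or when libraries were scaled by their totals alone. Markers of slow fibres summed to 754, 528 and 436 CPM in sepsis 1, 2 and 3 and to between 642 and 864 CPM in controls. Their sum therefore ran in the same order over the septic libraries as Myh7, but Myl3, Tnni1 and Casq2 taken singly did not. The part of these markers in the result was not tested, and all 8 of them had reads.

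The transcript ends of the members are partly alike, and neither the strand setting nor the treatment of shared reads is stated in the labels. In the last 500 bases of the longest coding transcripts, 230 of 451 pieces of 50 bases in Myh7 also occurred in another heavy chain, with Myh6 closest. The summed level of Myh6 and Myh7 was 90.2 ± 40.1 CPM in sepsis and 95.3 ± 23.3 in controls, also with overlap. Myh1 and Myh2 each shared 72 of 451 such pieces, Myh4 shared 34, Myh8 shared 6 and Myh3 shared 0. Antisense genes annotated across Myh1, Myh2 and Myh7 were not analysed here, and without the strand setting their reads cannot be told from those of the heavy chains.

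The developmental genes were close to the limit of detection in every library but one. Myh8 (ENSMUSG00000055775), the perinatal gene, had 20, 19 and 11 reads in sepsis 1, 2 and 3, against 141, 15, 13, 11 and 10 reads in controls 1 to 5. Control 1 held most of the control reads, and without it the groups had nearly equal means, 3.94 ± 1.40 CPM in sepsis (n = 3) and 3.95 ± 0.622 in controls (n = 4). With control 1 the log2 fold change was -1.53 (SE 1.05, edgeR adjusted p = 0.266), and without it -0.02 (edgeR adjusted p = 0.964).

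Myh3 (ENSMUSG00000020908), the embryonic gene, had 2, 2 and 5 reads in sepsis 1, 2 and 3, against 114, 7, 5, 0 and 11 reads in controls 1 to 5. The mean was 0.698 ± 0.388 CPM in sepsis, against 7.77 ± 13.4 CPM in all 5 controls and 1.80 ± 1.46 CPM in the 4 controls other than control 1. It did not pass the filter on low counts. Fitted with no filter, its log2 fold change was -3.44 (edgeR adjusted p = 0.228), and DESeq2 gave -3.44 (adjusted p = 0.0673), so it was not called by either tool. The 0 reads of control 4 allow a level of up to 1.08 CPM, by counting error only.

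Some other transcripts of forming fibres were also high in control 1, and others were not. Mymk, which encodes the fusion protein myomaker, had 0 reads in all septic libraries, against 20 reads in control 1 and 0 to 3 in the other controls. Chrng, the fetal subunit of the acetylcholine receptor, had 0 reads in sepsis, against 7 in control 1 and 0 to 1 in the other controls. Myog, a myogenic factor, had 7.22 CPM in control 1, inside the 3.19 to 8.79 CPM of the other controls. Myod1, another, had 15.5 CPM in control 1, also inside their range of 10.8 to 27.9 CPM. The new fibre markers other than Myh3 and Myh8 summed to 13.2 to 19.7 CPM in sepsis, against 52.2 CPM in control 1 and 23.9 to 49.6 in the other controls, with Mymx at 0 in every library. The leukocyte markers of control 1 summed to 77.4 CPM, against 24.9 to 32.3 in the other controls, and their part in its Myh3 and Myh8 reads was not tested.

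The summed level of the 6 genes was 42716, 31003 and 47972 CPM in sepsis 1, 2 and 3, against 55512, 60824, 61640, 62639 and 64068 CPM in controls 1 to 5. All septic values lay below all control values. The mean was 40564 ± 8687 CPM in sepsis and 60936 ± 3265 in controls, a difference of -0.61 on the log2 scale. Over the 56 divisions of the libraries, a two-sided exact permutation test gave p = 0.0179, the smallest this design allows, or 0.0357 adjusted over the sum and the share of all reads. As a share of all reads the genes took 4.81%, 4.01% and 5.58% in sepsis, against 4.98%, 5.50%, 5.45%, 5.61% and 5.70% in controls. Those values overlapped, and the means of 4.80 ± 0.787% and 5.45 ± 0.281% did not pass the same exact test (p = 0.0893, smallest possible 0.0179). With 1 library left out, the summed level passed only where that library was sepsis 3 (adjusted exact permutation p = 0.0476). In the other 7 cases its adjusted exact p was 0.0571 to 0.0952. All septic sums still lay below all control sums in these cases, so the unadjusted p stayed at the smallest possible. With fewer divisions, the sum could pass only if the share of all reads was also at its smallest p. The adjusted p of these cases therefore cannot show whether the sum's result rested on 1 library. The difference in the share of all reads was -0.254 percentage points without sepsis 2 (adjusted exact p = 0.476) and -1.04 without sepsis 3 (0.0476), and it did not pass without any other library (0.0857 to 0.229).

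The calls of the members depended on how libraries were scaled, while the signs of Myh4, Myh1 and Myh2 did not. The TMM factors took the septic libraries as larger than their totals, at 1.13 to 1.30, and the control libraries as smaller, at 0.887 to 0.908. With library totals alone, all genes tested had a median of 0.43 on the log2 scale, against 0.01 with TMM, and calls over all genes were 4256 higher and 1387 lower, against 2475 and 2468. Of the members, 0 were then called lower. The log2 fold changes were then -0.16 for Myh4, -0.26 for Myh1 and -1.07 for Myh2, with edgeR adjusted p-values of 0.221, 0.154 and 0.0558. Relative to the median of all genes, Myh4 stood at -0.58 with TMM and -0.59 with totals alone, Myh1 at -0.70 and -0.69, and Myh2 at -1.53 and -1.51. Leaving out any 1 of the 8 libraries kept all 3 calls, with log2 fold changes of -0.72 to -0.39 for Myh4, -0.80 to -0.56 for Myh1 and -1.90 to -1.13 for Myh2.

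**Figure D2:**
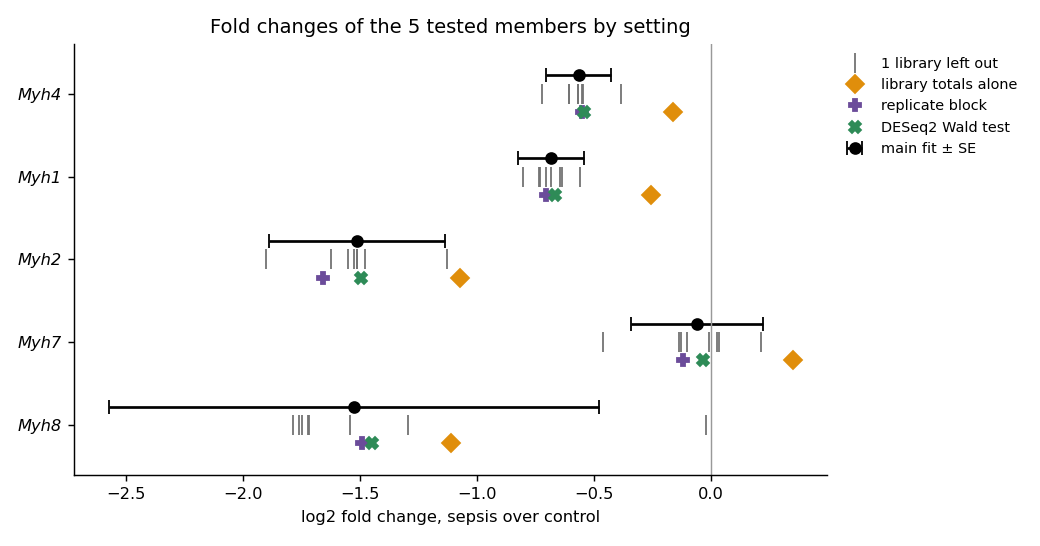
Log2 fold change of the 5 tested members, sepsis over control, in the main edgeR fit (black, ± SE), with each library left out (grey ticks), with library totals alone, with a replicate block and by DESeq2. Myh4, Myh1 and Myh2 stay below 0 in every setting drawn, Myh7 lies on both sides of 0, and the Myh8 tick at -0.02 is the fit without control 1.

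Within the family the order of levels was Myh4, then Myh1 and Myh2, then Myh7, Myh8 and Myh3. Myh1 exceeded Myh2 in 3 of 3 septic libraries and in 3 of 5 control libraries, so these neighbours were not separated in controls. Myh8 exceeded Myh3 in 3 of 3 septic and 4 of 5 control libraries, and the other neighbours kept their order in every library.

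Myh4 made up 95.8%, 93.2% and 97.7% of the family's reads in sepsis 1, 2 and 3, against 93.9%, 94.8%, 94.4%, 94.8% and 94.4% in controls 1 to 5. The septic libraries lay on both sides of the controls. The mean share was 95.6 ± 2.24% in sepsis and 94.5 ± 0.386% in controls (exact permutation p = 0.357, adjusted over the 6 shares 0.714). The difference of 1.10 percentage points was 2.27 without sepsis 2 and 0.0388 without sepsis 3. Counting error was far smaller than this spread, with 95% Wilson half-widths of at most 0.128 percentage points.

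Myh2 made up 1.52%, 2.72% and 0.464% in sepsis 1, 2 and 3, against 2.88%, 2.72%, 2.41%, 2.83% and 2.57% in controls 1 to 5. Sepsis 2 lay inside the control range and the other septic libraries below it. The difference of means was -1.12 percentage points (exact permutation p = 0.0536, adjusted 0.321), and it was -1.69 without sepsis 2 and -0.565 without sepsis 3. The SD among septic libraries was 5.84 times that among controls for Myh2 and 5.80 times for Myh4. Myh1 took 1.73% to 3.797% in sepsis and 2.17% to 2.998% in controls, and Myh7 took 0.0933% to 0.268% in sepsis and 0.0995% to 0.165% in controls. The Myh7 difference of 0.0662 percentage points was 0.0311 without sepsis 1 and 0.118 without sepsis 3. None of the 6 shares passed the test. With a smallest possible exact permutation p of 0.0179, no share could pass after adjustment unless others had low p-values too.

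**Figure D3:**
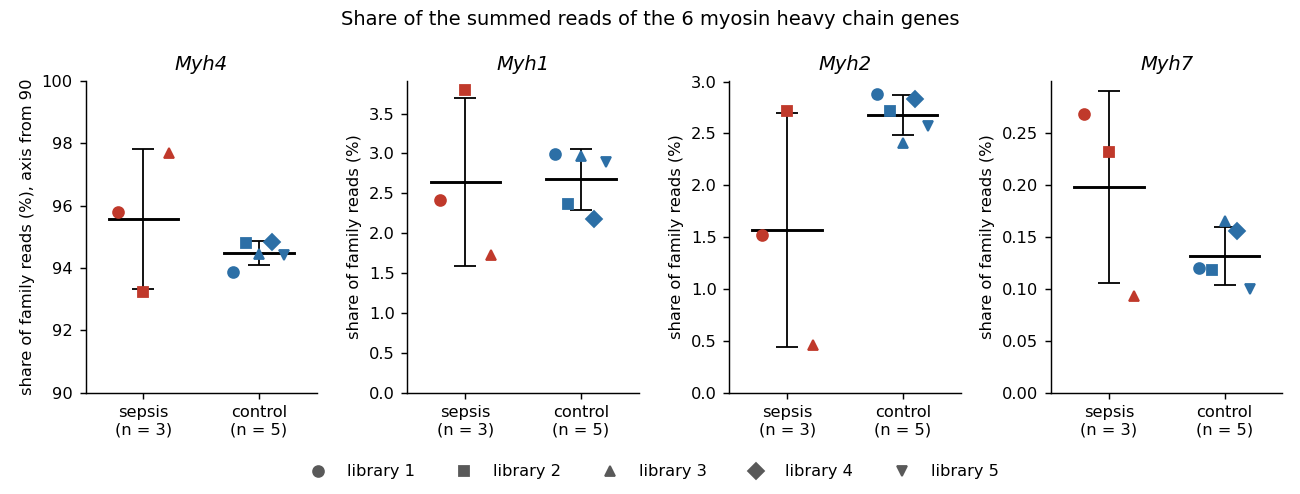
Share of the summed reads of the 6 genes taken by each adult gene, in percent, per library with mean ± SD, sepsis left and control right; the Myh4 axis starts at 90. Septic libraries are spread more widely than controls in all 4 panels, and sepsis 3 has the highest Myh4 share (97.7%) and the lowest Myh2 share (0.464%).

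Ratios of reads within a library do not depend on scaling, and 8 of them were compared. For every 100 reads of Myh1 there were 62.9, 71.5 and 26.8 reads of Myh2 in sepsis 1, 2 and 3, against 96.1, 115, 81.3, 130.2 and 89.0 in controls 1 to 5. All septic ratios lay below all control ratios, with a log2 difference of -1.03, or -0.59 without sepsis 3. For every 100 reads of Myh2 there were 17.6, 8.53 and 20.1 reads of Myh7 in sepsis 1, 2 and 3, against 4.15, 4.33, 6.85, 5.49 and 3.87 in controls. These too did not overlap, with a log2 difference of 1.58. Each of these had an exact permutation p of 0.0179, the smallest possible, and 0.0714 adjusted over the 8 ratios, so neither passed the threshold. Even at that smallest p, neither could pass unless further ratios had low p-values too.

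The ratio of Myh2 to Myh4 differed by -1.12 on the log2 scale (exact permutation p = 0.0714, adjusted 0.190), with sepsis 2 inside the control range and sepsis 3 far below it. It was -1.71 without sepsis 2 and -0.40 without sepsis 3. The ratio of Myh1 to Myh4 differed by -0.10 (exact permutation p = 0.786, adjusted 0.898), and that of Myh7 to Myh4 by 0.46 (exact permutation p = 0.286, adjusted 0.457). The last was 0.17 without sepsis 1, 0.26 without sepsis 2 and 0.95 without sepsis 3. A larger fall of Myh2 than of Myh1 or Myh4 was thus not called after adjustment, although its fold change was the largest of the called members. For Myh1 the adjusted test could not decide this, since the ratio of Myh2 to Myh1 was already at the smallest possible p.

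**Figure D4:**
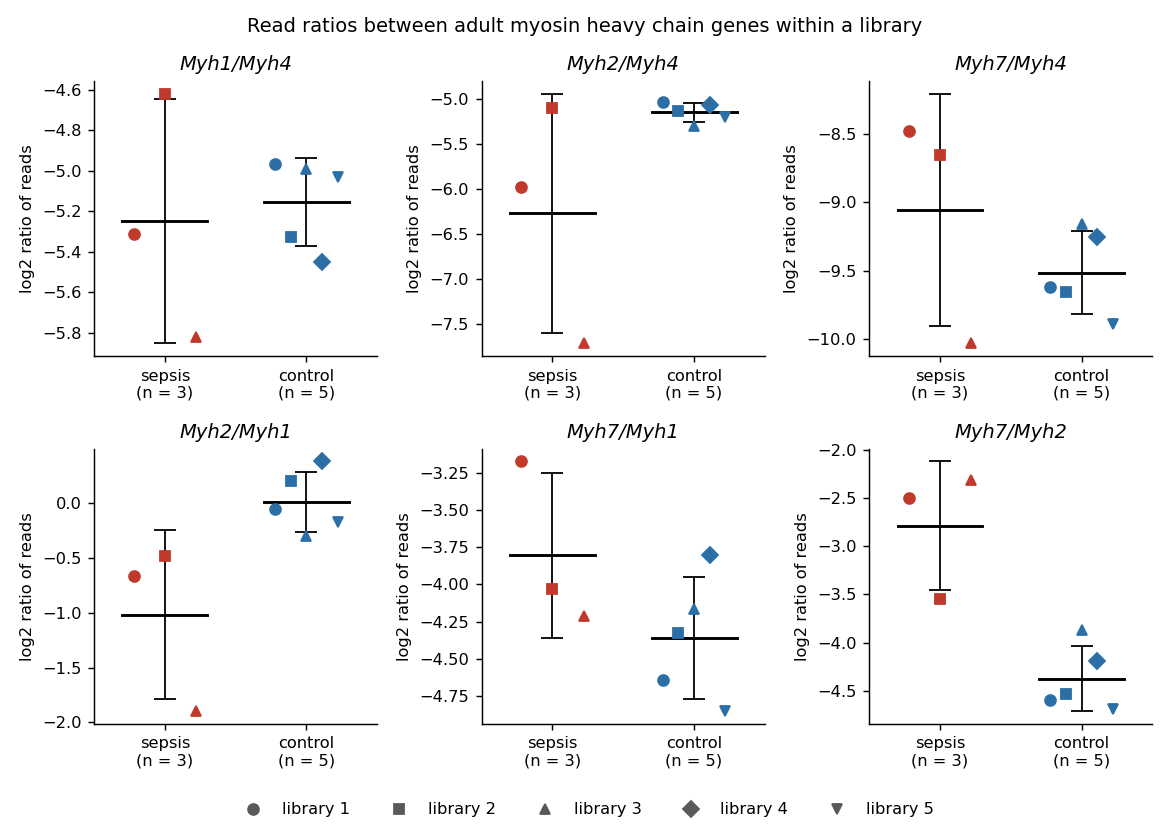
Log2 ratio of reads between pairs of adult myosin heavy chain genes in each library with mean ± SD, sepsis left and control right, on separate linear axes. The groups are apart for Myh2/Myh1 (log2 difference -1.03) and Myh7/Myh2 (1.58), and they overlap in the other 4 panels.

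Genes whose log2 CPM ran most like a member over the 8 libraries were found among 6760 genes, as a description in which the group difference itself counts. Closest to Myh2 were Mef2c, a muscle transcription factor (Pearson r = 0.996), Cav3, the muscle caveolin (0.994), and Ldb3, a Z-disc protein (0.992). Mef2c averaged 421 ± 276 CPM in sepsis and 1467 ± 98.9 in controls. Closest to Myh4 were Smoc2 (r = 0.975), Lgalsl (0.974) and Map2k4 (0.970), and closest to Myh1 were Slc4a4 (0.975), Ppif (0.972) and Zfp30 (0.969). Myh7 had its highest values with Pja2 (0.924), Adamtsl4 (0.920) and Zfp281 (0.913). Among the members themselves r was 0.889 for Myh1 with Myh2, 0.563 for Myh1 with Myh4 and 0.487 for Myh2 with Myh4. These points share libraries and scaling factors.

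Of the 5 other heavy chains tested, 3 rose and 0 fell by edgeR and by DESeq2, with 1 lower at an unadjusted edgeR p below 0.05. Over all genes tested, 25.2% rose and 25.2% fell, and the groups' CPM did not overlap in 47.5%. Myh9, Myh10 and Myh14, the non-muscle myosins of the cell cortex, all rose without overlap: Myh9 averaged 90.4 ± 34.9 CPM in sepsis and 49.1 ± 2.18 in controls (log2 fold change 0.88, SE 0.20, edgeR adjusted p = 0.00321). Myh10 had a log2 fold change of 1.12 and Myh14 of 1.51. Myh11, the smooth muscle gene, had 21.2 ± 2.20 CPM in sepsis and 27.6 ± 4.67 in controls (edgeR adjusted p = 0.0765), and it was called lower with upper-quartile scaling. Myh6 was not called (log2 fold change -0.20, edgeR adjusted p = 0.611), and Myh7b, Myh13 and Myh15 had too few reads to test with all 8 libraries. Without sepsis 1, Myh13 passed the filter and was called lower. It had only 4 to 17 reads per library, and 0 of the other heavy chains were called lower without sepsis 2 or sepsis 3.

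Partners of the heavy chains in the thick filament fell with them in part. Of 10 tested light chains, 5 fell and 1 rose, with a median log2 fold change of -0.79 against 0.01 for all genes tested. Beside this and the lists that follow, 25.2% of all genes tested rose and 25.2% fell. Mylpf, the fast regulatory light chain, averaged 3274 ± 692 CPM in sepsis and 12612 ± 637 in controls (log2 fold change -1.95, SE 0.13), and Myl1, the fast essential light chain, changed by -1.47 and Myl3, the slow one, by -1.01. Myl12a, a non-muscle light chain, rose by 2.35. Without sepsis 1 or without control 3, 2 light chains were higher.

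Of 9 tested myosin-binding proteins and kinases, 4 fell and 0 rose (median -0.45; 0 also by DESeq2 and at an unadjusted edgeR p below 0.05), and 1 rose when sepsis 2 or sepsis 3 was left out. Mybpc2, the fast myosin-binding protein C, fell by 0.85 on the log2 scale and Myom1, an M-band protein, by 0.37, while Mybpc1, the slow form, had a log2 fold change of 0.12 (edgeR adjusted p = 0.537). Myom2, another M-band protein, averaged 382 ± 223 CPM in sepsis and 642 ± 23.5 in controls and was not called (edgeR adjusted p = 0.151). Mylk4, a light chain kinase, averaged 91.0 CPM in sepsis and 1205 in controls, and Mybph, a relative of myosin-binding protein C, averaged 1.10 CPM in sepsis and 61.7 in controls.

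Among 16 tested genes of myosin folding and assembly, 7 rose and 3 fell (median 0.21), against 25.2% and 25.2% of all genes tested. Hsp90ab1, a cytosolic chaperone, rose by 1.12 and Hspb1, a small heat shock protein, by 2.71 on the log2 scale. Smyd1 fell by 2.52, and Unc45b, the chaperone that folds the myosin head, fell by 1.13. Hsp90aa1 was not called (log2 fold change 0.36, edgeR adjusted p = 0.0983).

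All 15 of the tested partners of fast fibres fell, with a median log2 fold change of -1.43. Tpm1, a tropomyosin, changed by -2.18, Tnnc2, the fast troponin C, by -1.47, Acta1, skeletal actin, by -1.43 and Tnnt3, the fast troponin T, by -0.77. This list is not confined to fast fibres, since Acta1 also serves here as a marker of skeletal muscle as a whole. Of 15 tested partners of slow fibres, 4 rose and 5 fell (median 0.06). That is 26.7% and 33.3%, near the 25.2% and 25.2% of all genes tested. Mb, myoglobin, changed by -1.44 and Ankrd2, a stretch-responsive protein, by 3.73. The count of slow partners that rose was 2 without control 2, control 3, sepsis 1 or sepsis 2, and 6 without sepsis 3.

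**Figure D5:**
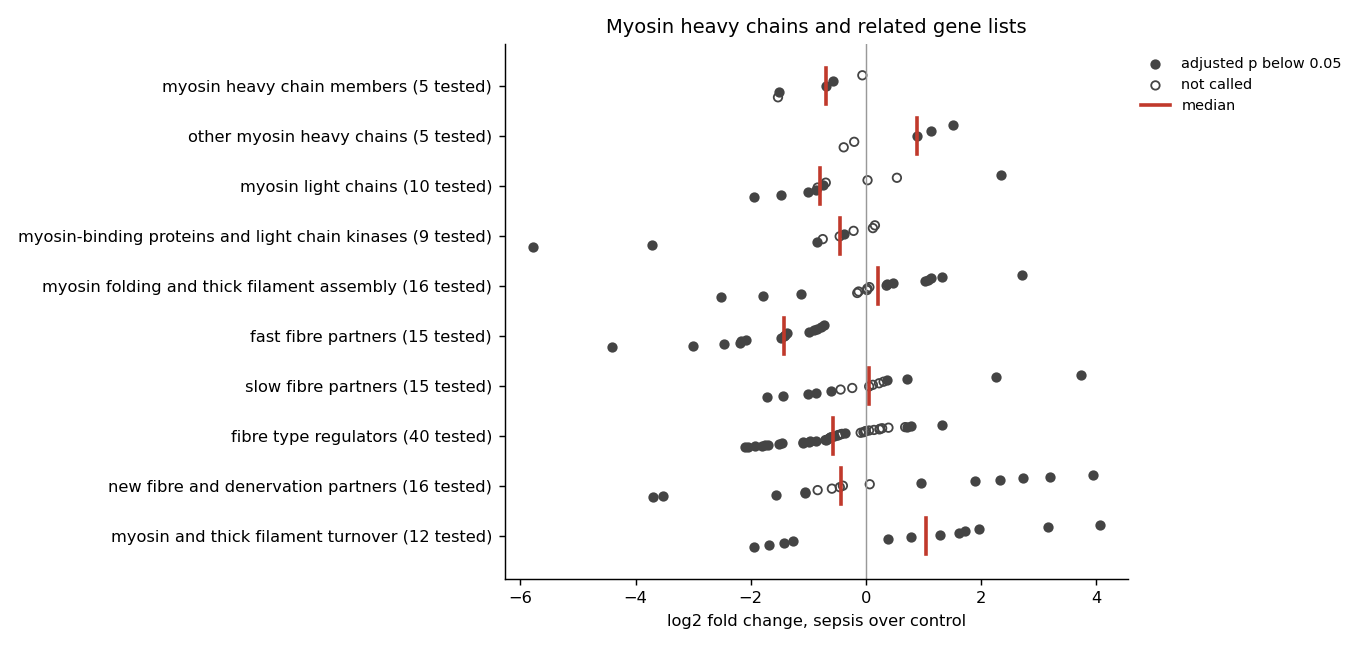
Log2 fold change, sepsis over control, of the tested myosin heavy chain members and of 9 related gene lists; each point is a gene, filled where the edgeR adjusted p was below 0.05, and the red line is the list's median. The fast fibre partners all lie below 0 with a median of -1.43, the slow fibre partners lie on both sides with a median of 0.06, and the other heavy chains have a median of 0.88.

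Of 40 tested regulators of fibre type, 18 fell and 3 rose (median -0.58), against 25.2% and 25.2% of all genes tested. Mef2c changed by -1.80, Ppp3ca, a catalytic subunit of calcineurin, by -0.98, and Maf by -1.93. Maf and its relative Mafa, which are known in mice to drive Myh4, averaged 193 ± 151 and 37.8 CPM in sepsis, against 735 ± 82.6 and 157 CPM in controls. Tead1, which binds muscle promoters, was not called (log2 fold change -0.04, edgeR adjusted p = 0.753). Without sepsis 2, 5 regulators were higher.

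On the list of new or denervated fibres, which leaves out Myh3 and Myh8, 16 genes were tested, and of these 6 rose and 5 fell (median -0.43). Of all genes tested, 25.2% rose and 25.2% fell. Musk, the kinase of the neuromuscular junction, changed by 2.34, Ankrd1, a stress-responsive ankyrin repeat protein, by 3.95 and Myf6, a myogenic factor, by 1.89. Actc1, the cardiac actin that forming fibres also use, averaged 30.5 ± 4.42 CPM in sepsis and 352 ± 126 in controls. Of 12 genes of thick filament turnover, 8 rose and 4 fell (median 1.04), against 25.2% and 25.2% of all genes tested. Trim63, the ligase MuRF1 that marks myosin heavy chain for breakdown, changed by 4.06 and Fbxo32, the ligase atrogin-1, by 3.17 on the log2 scale.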

How the data were processed

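Per the labels' protocols, 25 ng of RNA from each sample entered a QuantSeq 3′ kit. The values used are the counts of reads per gene that the authors deposited, unnormalised, in a column for each library. GRCm39 is the build per the submitters' processing notes. Aligner, counter, strand setting and annotation: not given in the sources used here.

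Counts were tested with edgeR 4.0.16 in R 4.3.3, with the quasi-likelihood test, TMM scaling, an expression filter (minimum count 10, minimum total 15) and Benjamini-Hochberg adjustment over 9810 genes, threshold 0.05. The procedure was tested on simulated data, with 200 genes changed and the same spread in both groups. In these data far more genes were called and septic libraries varied more. The simulation therefore does not cover how the calls depend on scaling. The SE is the absolute log2 fold change divided by the square root of F, derived here and not an edgeR output. CPM used TMM-scaled library sizes. Sums, shares and log2 ratios (0.5 reads added) were compared by two-sided exact permutation tests with scipy 1.17.1. Alternatives were other scalings, no filter, DESeq2 1.42.0, a replicate block and leaving out each library. Intervals and limits cover counting error only, since reads are not independent molecules.

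The members and lists were chosen with earlier results of these data known. From each list the 4 tested genes with the highest mean log2 CPM could be named. Unc45b, Mylk4, Mybph and Mafa were named after their values were seen. For members with at least 100 reads in every library, the 3 most alike genes of mean log2 CPM 3 or more were named. Separate animals are not stated in the labels, and p-values therefore cover only the spread between samples, which may be technical.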

Additional observations from a re-analysis of the deposited data

Results flagged for a closer look

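Control 1 stood far from the other 4 controls in 5 of 21 measures examined for an outlying library among the controls, where chance flags about 1 in 20 and the measures are not independent. Its level was 39.1 CPM for Myh8 and 31.6 CPM for Myh3, the perinatal and embryonic genes. Its share of the family's reads was 0.0705% for Myh8 and 0.0570% for Myh3, and its log2 ratio of Myh8 to Myh4 was -10.37. The septic group, with 3 libraries, was too small for this check.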

How the results depend on the processing

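The 3 members called lower stayed at 3 under DESeq2 size factors, upper-quartile factors, no filter, DESeq2's Wald test and each library left out, and fell to 0 with library totals alone. With the replicate number as a block, the call of Myh4 was lost (log2 fold change -0.55, edgeR adjusted p = 0.0531) and those of Myh1 (-0.71) and Myh2 (-1.66) were kept, so 2 members were lower. The replicate numbers share only a number: same-numbered libraries' deviations correlated at -0.124, 0.0409 and -0.0196, and the block moved the counts over all genes to 1741 higher and 1884 lower, against 2475 and 2468. With library totals alone Myh7 turned to 0.35 and the summed family changed by -0.19. That scaling also raised the genes called higher to 3 light chains, 11 folding genes, 7 slow partners and 11 regulators, and kept all 15 fast partners lower. Leaving out 1 library gave -0.74 to -0.43 for the sum, with adjusted exact p-values of up to 0.0952 as fewer libraries leave fewer divisions, and -1.04 to -0.254 percentage points for the family's percent of all reads. It gave -0.46 to 0.21 for Myh7, -0.607 to 0.427 percentage points for the Myh1 share, -0.0125 to 0.00383 for the Myh8 share, -0.38 to 0.56 for the log2 ratio of Myh8 to Myh4 and -0.41 to 0.19 for that of Myh1 to Myh4. Directions of these uncalled values were not stable, and the causes were not tested. Where a septic library was left out, the group held 2 libraries. Myh3, with 0 to 11 reads outside control 1, was limited by depth.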
